A study of Caenorhabditis elegans with 12 samples.

Results

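The transcripts described here encode the enzymes and chaperones that fold new proteins inside the endoplasmic reticulum (ER) of the nematode Caenorhabditis elegans. The 10 genes are pdi-1 (locus C14B1.1), pdi-2 (C07A12.4), pdi-3 (H06O01.1), pdi-6 (B0403.4), ero-1 (Y105E8B.8), cnx-1 (ZK632.6), crt-1 (Y38A10A.5), enpl-1 (T05E11.3), dnj-7 (C55B6.2) and dnj-27 (Y47H9C.5). They were found by gene symbol in the platform annotation, which pairs them with 15 of the 22548 probe sets, and they are 10 of the 17118 genes with a probe set of their own. A probe set is a group of short oligonucleotides on the array that together read one transcript. Of the genes, 5 had 2 probe sets and 5 had 1, and 1 further probe set that names dnj-27 together with another gene was left out. A probe set whose name ends in _s_at can also read a related transcript, and 8 of the 15 are of this kind. For 5 of the genes (pdi-1, pdi-3, crt-1, cnx-1 and dnj-7) no other kind was present.

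Secreted and membrane proteins enter the ER unfolded. Protein disulfide isomerases (PDIs) form and reshuffle their disulfide bonds, and the oxidase ERO1 takes the electrons from PDI so that it can work again. The lectins calnexin and calreticulin hold glycoproteins that carry a single remaining glucose, while the ER forms of HSP90 and HSP70, helped by DnaJ proteins, bind exposed chains. In many animals, genes of this kind are targets of the unfolded protein response (UPR), which the ER membrane sensors IRE-1, PEK-1 and ATF-6 start when unfolded chains build up. In the worm, the gut, the hypodermis and the pharynx are among the tissues that secrete much protein, cuticle collagens and yolk included.

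Total RNA came from whole adults of the wild-type strain N2 Bristol, raised from embryos for 2.5 days at 23 °C and placed at 17 °C as adults. The 12 arrays comprise 4 from worms still at 23 °C (0 h), 2 each from 1 h and 2 h at 17 °C, and 4 from 4 h at 17 °C, and the comparisons ask which transcripts differed once the worms were cooler. Some of the same worms went to a thermotaxis assay, per the labels. No array of worms kept at 23 °C for those hours was analysed here, so temperature cannot be told apart from time and handling. The labels do not say that replicates are separate cultures, so the p-values measure only the spread between these samples, which may be technical. Replicates 1 and 2 exist at every time, replicates 3 and 4 only at 0 h and 4 h.

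Signal is given in log2 units, so a difference of 1 is a doubling or a halving of signal. Array medians lay between 5.50 and 5.57, and Pearson's r between arrays across probe sets was 0.994 to 0.998. No 2 arrays held identical values. The tissue and stage labels were set against marker genes: 36 of 55 measured markers of 12 tissues or stages lay above the median probe set, germline and oocyte markers all did, and male tail markers all lay below it. Of the 55, 2 were called at 4 h, the intestinal peptide transporter gene pept-1, which rose, and the intestinal proton pump gene vha-6, which fell. The summed log2 signal of 6 intestinal markers was 47.9 to 48.4 on the 4 h arrays, against 46.7 to 47.5 on the 0 h arrays. Most of this gap was pept-1 (0.91): without it the sum of the other 5 was 39.9 to 40.6 at 4 h, against 39.8 to 40.5 at 0 h, which overlap. Their part in the values below was not tested. The RNA is from whole worms, so fewer cells of a type and less RNA per cell cannot be told apart.

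The 10 folding genes stayed close to their starting signal after the move to 17 °C. With limma's moderated test, adjusted by Benjamini-Hochberg over all 22548 probe sets, 0 of the 15 probe sets passed the threshold of 0.05 at 1 h, 0 at 2 h and 0 at 4 h against 0 h, where 0%, 0.967% and 2.3% of all probe sets passed. At an unadjusted p under 0.05 the counts were 0, 2 and 2 of 15, or 13.3% at both 2 h and 4 h, where 6.42%, 12.8% and 12.7% of all probe sets passed. The members' shares were thus near those of the whole array. Against 0 h, the 1 h and 2 h arrays pooled gave 0 calls (1 unadjusted) where 0.665% of all probe sets were called (11.8% unadjusted). The 4 h arrays against 1 h and 2 h together gave 0 calls (3 unadjusted) where 0.373% were called (12.8% unadjusted). The F test over the 3 changes from 0 h gave 0 calls and 0 unadjusted, where 1.77% of all probe sets were called (13.3% unadjusted).

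The spread of the 15 probe sets within times sets how closely their differences are bounded. For 14 of them it was under the median spread of all probe sets (0.139). The members' own spread ran from an SD of 0.0506 to 0.169. At 4 h their differences from 0 h ran from -0.18 to 0.08, and the 95% intervals from -0.35 at the lowest to 0.28 at the highest, or from 1.27-fold lower to 1.22-fold higher signal. At 1 h the differences ran from -0.17 to 0.14 (intervals from -0.37 to 0.43), and at 2 h from -0.25 to 0.18 (intervals from -0.45 to 0.47). These values set the replicates 1 and 2 of 1 h and 2 h against all 4 arrays of 0 h. With the replicate number as a block the differences ran from -0.13 to 0.29 at 1 h (intervals from -0.34 to 0.48) and from -0.20 to 0.33 at 2 h (intervals from -0.44 to 0.52), the highest being pdi-6 173898_at at both times. For comparison, among all probe sets called at 4 h the smallest change was 0.28 and the median size 0.55. The adjusted p-values of the 15 ran from 0.815 to 0.986 at 1 h, from 0.291 to 0.995 at 2 h and from 0.32 to 0.996 at 4 h. The intervals are wider at 1 h and 2 h, which have 2 arrays each.

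**Figure D1:**
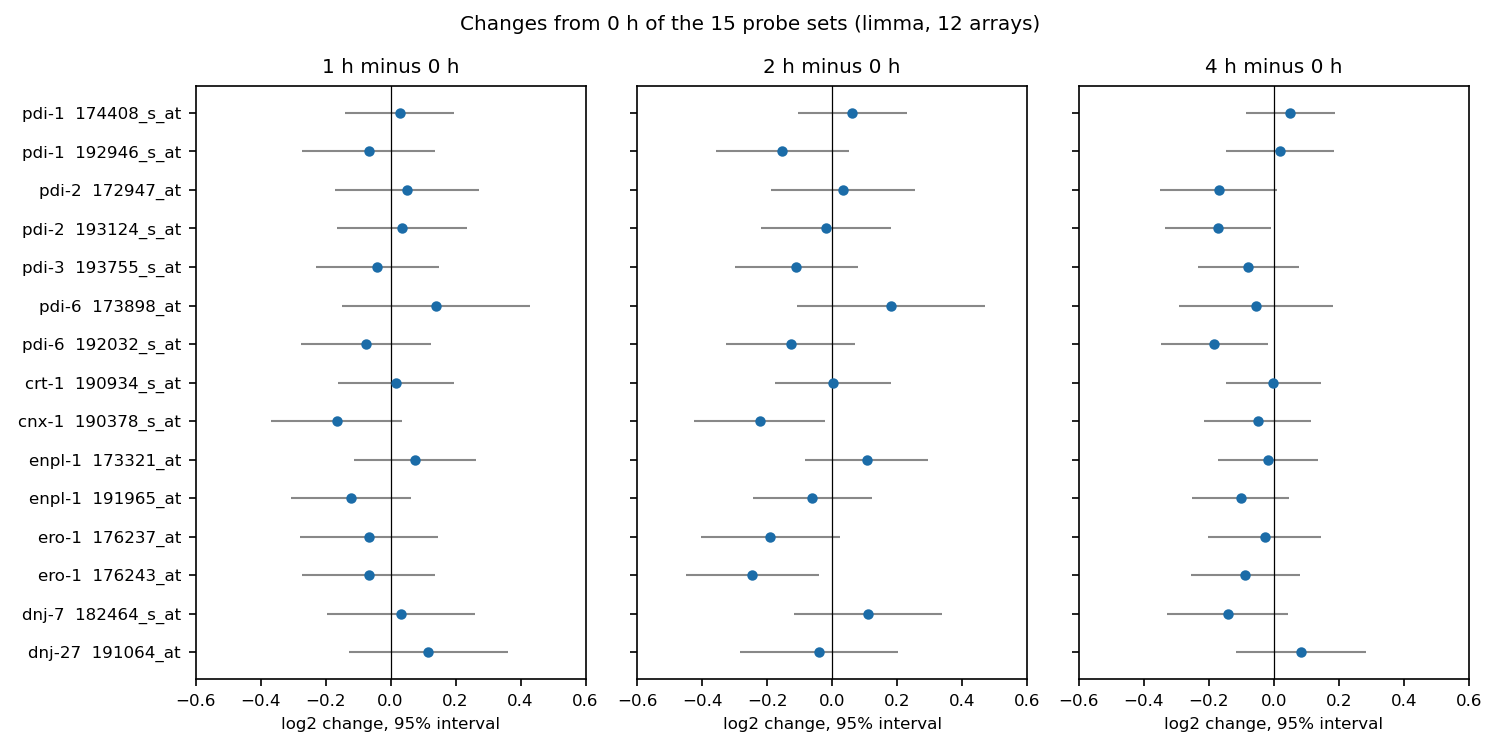
Difference in log2 signal from 0 h for each of the 15 probe sets (rows, named by gene and probe set), at 1 h (left), 2 h (middle) and 4 h (right). Points are limma estimates over 12 arrays and lines are 95% intervals, without a block for the replicate number. They lie between -0.45 and 0.47, with 0 of the 15 called at any time.

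The disulfide isomerases come first. PDI-2 is both a disulfide isomerase and a subunit of the collagen prolyl 4-hydroxylase that matures cuticle collagen. Its probe set 193124_s_at read 9.52, 9.59, 9.75 and 9.79 at 4 h, against 9.88, 9.74, 9.84 and 9.88 at 0 h. The 4 h arrays lay lower in replicates 1 and 2 than in 3 and 4, and overlapped the 0 h range only narrowly. The difference was -0.17 (SE 0.0754, limma adjusted p = 0.362), and it was below 0 in 4 of 4 replicate numbers, at -0.36, -0.14, -0.09 and -0.09. The other probe set, 172947_at, read 7.58, 7.70, 7.83 and 7.88 at 4 h, against 7.95, 7.76, 7.96 and 7.99 at 0 h. It differed by -0.17 too (SE 0.0836, adjusted p = 0.44), and its signal followed that of the first over the 12 arrays (r = 0.942, a description across arrays that share times). At 1 h and 2 h both stayed near their 0 h means (differences of -0.02 to 0.05), with 9.87, 9.86, 9.78 and 9.85 for 193124_s_at, so the lower readings were those of the 4 h arrays. Set against the 1 h and 2 h arrays together, 4 h differed by -0.18 and -0.21 (adjusted p = 0.343 and 0.313). These values ignore the replicate number. With the number as a block, 172947_at exceeded 0 h by 0.14 at 1 h and 0.12 at 2 h (limma adjusted p = 0.684 and 0.581). For 193124_s_at the values were 0.10 and 0.05 (adjusted p = 0.766 and 0.833). The 4 h arrays then differed from 1 h and 2 h together by -0.24 for 193124_s_at and -0.30 for 172947_at (adjusted p = 0.15 and 0.115).

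PDI-6 is a further disulfide isomerase, and its 2 probe sets gave different courses. Probe set 192032_s_at read 8.73, 8.69, 8.83 and 8.82 at 4 h, against 8.87, 8.89, 8.92 and 9.12 at 0 h. All 4 of the later arrays lay below all 4 of the earlier ones, the one member probe set of 15 to separate in this direction at 4 h, where 4.54% of all probe sets did. The difference was -0.18 (SE 0.0755, limma adjusted p = 0.32) and below 0 in 4 of 4 replicate numbers. That last trait was shared by both pdi-2 probe sets, pdi-3, cnx-1, ero-1 176243_at and pdi-6 173898_at, so it does not single out 192032_s_at. Its share among all probe sets is not given. The companion 173898_at read 8.59, 8.66, 8.96 and 8.86 at 4 h, against 8.67, 8.66, 9.02 and 8.94 at 0 h, so the groups overlapped almost fully and the difference was -0.05. At 1 h and 2 h it read 8.91, 9.02, 8.88 and 9.13, all above the 0 h arrays of replicates 1 and 2 and spread around those of replicates 3 and 4. The 2 probe sets thus differed in sign at 1 h (0.14 for 173898_at and -0.07 for 192032_s_at) and at 2 h (0.18 and -0.13). Their r over the 12 arrays was 0.463.

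For 173898_at the replicate numbers matter. Replicates 3 and 4 exceeded replicates 1 and 2 by 0.29 at 4 h and by 0.31 at 0 h, and the 1 h and 2 h arrays are all replicates 1 and 2. The 4 h arrays differed from the 1 h and 2 h arrays together by -0.21 without regard to the numbers (limma adjusted p = 0.443). Within replicate numbers 1 and 2 it exceeded 0 h by 0.24 and 0.35 at 1 h and by 0.21 and 0.46 at 2 h. With the number as a block the differences from 0 h were 0.29 at 1 h (adjusted p = 0.292), 0.33 at 2 h (SE 0.0843, adjusted p = 0.0872) and 0.31 for both together (adjusted p = 0.074), larger than without it, and none passed. For 4 h against 1 h and 2 h together, the block gave -0.36 (adjusted p = 0.0499), the one value that passed for a member under the 23 alternatives tried, where 246 of 22548 probe sets passed in place of 84. In replicates 1 and 2 alone it was again -0.36 (adjusted p = 0.235). The block assumes that the 1 h and 2 h arrays pair by number with those of 0 h and 4 h, which the labels do not state.

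PDI-1 and PDI-3 are the remaining isomerases, PDI-3 being the worm relative of mammalian ERp57, which works beside the lectin chaperones. The pdi-3 probe set read 11.19, 11.25, 11.34 and 11.38 at 4 h, against 11.28, 11.35, 11.39 and 11.45 at 0 h. Within each replicate number the 4 h array was the lower, by 0.04 to 0.10, yet the groups overlapped, and the difference was -0.08 (SE 0.0717, limma adjusted p = 0.761). For pdi-1, 174408_s_at averaged 11.45 ± 0.0232 at 4 h and 11.40 ± 0.0728 at 0 h (SD, n = 4 each), and 192946_s_at averaged 9.90 ± 0.096 at 4 h and 9.88 ± 0.107 at 0 h. These were the pair of probe sets with the least common pattern (r = 0.123), and the largest difference from 0 h in either was -0.15, in 192946_s_at at 2 h (limma adjusted p = 0.561).

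ERO-1, the oxidase that restores PDI, had its lowest mean at 2 h in both probe sets, where replicate 2 was the lowest array of all. Probe set 176243_at read 9.66 and 9.46 at 2 h, against 9.74, 9.82, 9.81 and 9.84 at 0 h, and both 2 h arrays lay below the 0 h range. Probe set 176237_at read 8.90 and 8.57 at 2 h, against 8.92, 9.01, 8.85 and 8.93 at 0 h, so only replicate 2 stood apart there. The differences at 2 h were -0.25 (SE 0.0947, limma adjusted p = 0.291) and -0.19 (SE 0.0989, adjusted p = 0.461). At 4 h they were -0.09 and -0.03, with 9.62, 9.65, 9.77 and 9.82 for 176243_at. The 1 h arrays of 176243_at read 9.64 and 9.84, so its replicate 1 at 2 h was not below replicate 1 at 1 h.

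Calnexin and calreticulin, the lectin chaperones, are given together. CNX-1 is anchored in the ER membrane, and its probe set read 10.58, 10.64, 10.70 and 10.65 at 0 h, 10.59 and 10.36 at 1 h, 10.53 and 10.31 at 2 h, and 10.52, 10.58, 10.65 and 10.62 at 4 h. Replicate 2 gave the low value at both 1 h and 2 h, while replicate 1 at these times lay close to the lowest 0 h array. The difference was -0.22 at 2 h (SE 0.0933, limma adjusted p = 0.34), -0.19 for 1 h and 2 h together (SE 0.0761, adjusted p = 0.335) and -0.05 at 4 h (SE 0.0761, adjusted p = 0.88). Together with ero-1 it made up the 2 of 15 probe sets whose 2 h arrays all lay below the 0 h range, where 11.7% of all probe sets did. In both genes the 2 h array of replicate 2 held most of the difference: within replicate 1, 2 h minus 0 h was -0.05 for cnx-1 and -0.08 for 176243_at, and within replicate 2 it was -0.32 and -0.36.

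CRT-1, calreticulin, also stores calcium in the ER lumen. It read 12.24, 12.29, 12.39 and 12.40 at 4 h, against 12.32, 12.27, 12.42 and 12.31 at 0 h, and the groups overlapped fully. The 1 h arrays read 12.39 and 12.30 and the 2 h arrays 12.34 and 12.32, all within the 0 h range. The difference at 4 h had a 95% interval of -0.15 to 0.14 (limma adjusted p = 0.996), among the narrowest of the 15.

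ENPL-1 is the worm's ER HSP90 (GRP94 in mammals). Its probe set 191965_at read 10.99, 11.10, 11.17 and 11.13 at 4 h, against 11.18, 11.10, 11.30 and 11.22 at 0 h, a difference of -0.10 (SE 0.0694, limma adjusted p = 0.639) with overlapping groups. The other probe set, 173321_at, differed by -0.02 at 4 h (SE 0.0712). It read 8.42 and 8.40 at 1 h and 8.39 and 8.49 at 2 h, against 8.31, 8.26, 8.38 and 8.38 at 0 h. It was the only one of the 15 whose arrays all lay above the 0 h range at 1 h, where 6.6% of all probe sets did, and at 2 h, where 10.4% did. By the same count 0 of the 15 lay below the range at 1 h and 0 above it at 4 h, where 7.68% and 4.61% of all probe sets did. The margins were small, with differences of 0.08 (adjusted p = 0.943) and 0.11 (adjusted p = 0.672), and 191965_at differed by -0.12 and -0.06 at those times.

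DNJ-7 and DNJ-27 are DnaJ proteins of the ER lumen, relatives of mammalian P58IPK and ERdj5, and partners of the ER HSP70. The dnj-7 probe set read 6.995, 7.09, 6.90 and 6.91 at 4 h, against 7.21, 7.03, 7.11 and 7.12 at 0 h. Replicate 2 was the exception to lower values at 4 h, and the difference was -0.14 (SE 0.0863, limma adjusted p = 0.575). The 1 h arrays were far apart (7.33 and 6.97), so their mean says little. For dnj-27 the readings were 7.83, 7.79, 8.02 and 8.18 at 4 h, against 7.76, 7.99, 7.83 and 7.90 at 0 h. Replicates 3 and 4 were high at 4 h and replicates 1 and 2 were not: the difference was 0.08 over all (SE 0.0922, adjusted p = 0.811), -0.07 in replicates 1 and 2 (adjusted p = 0.957) and 0.24 in replicates 3 and 4 (adjusted p = 0.417).

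**Figure D2:**
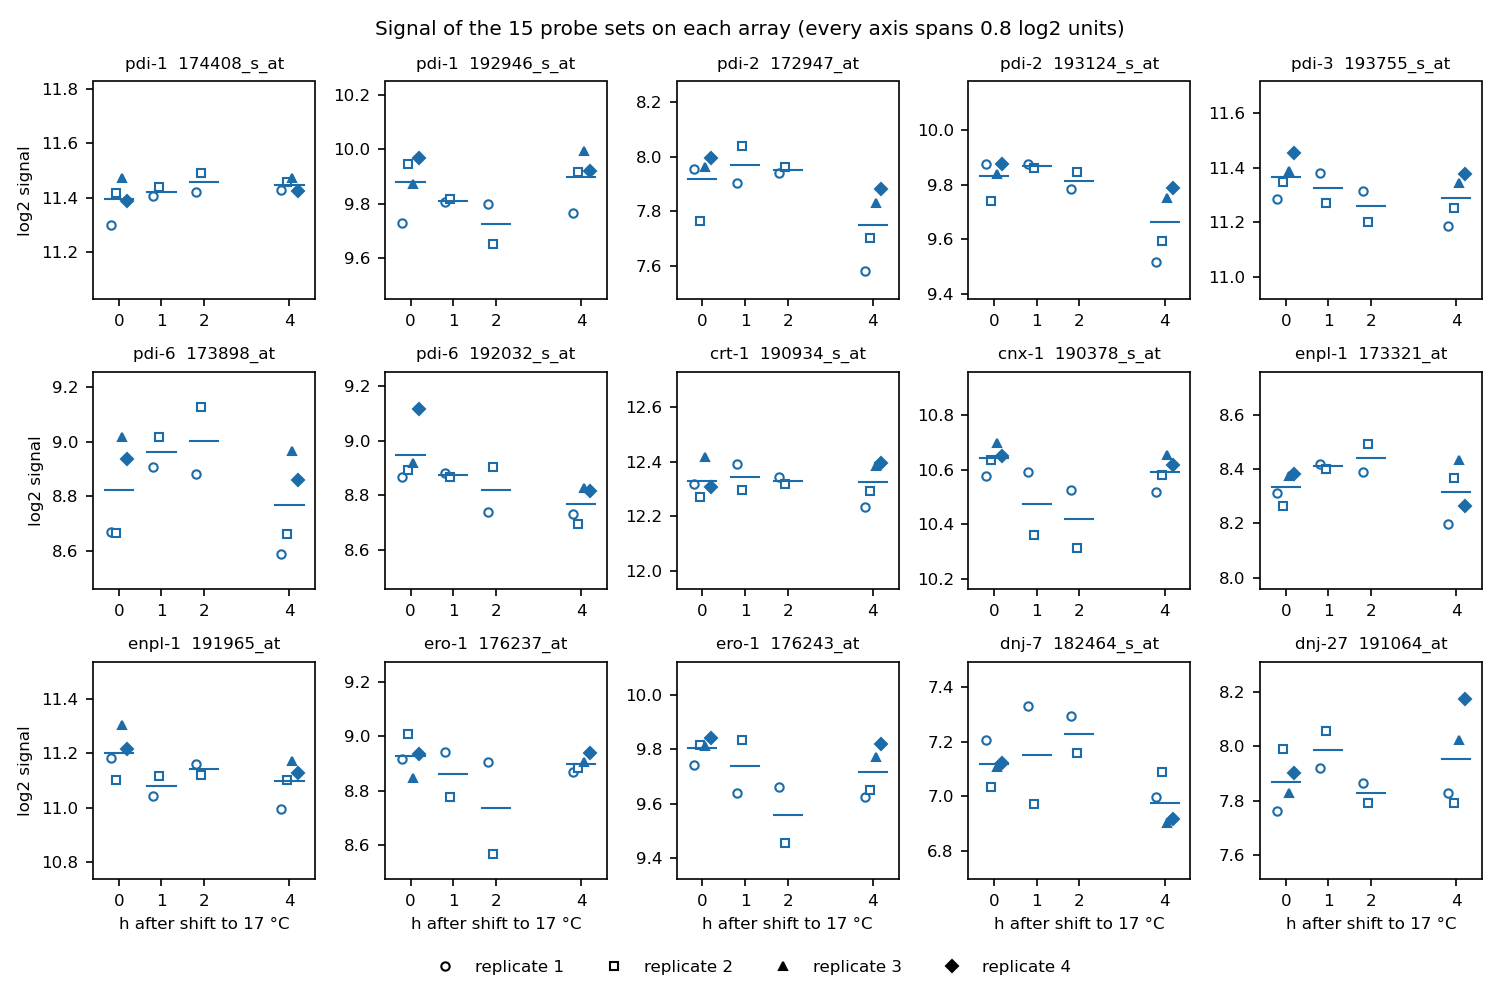
Log2 signal of each of the 15 probe sets on the 12 arrays, by hours after the shift to 17 °C. Symbols mark the replicate number (1 and 2 open, 3 and 4 filled), short lines are means per time, and every vertical axis spans 0.8 log2 units. The pdi-2 probe sets and pdi-6 192032_s_at are lowest at 4 h, cnx-1 and ero-1 are low at 2 h in replicate 2, and pdi-6 173898_at divides by replicate number.

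By gene, with the brightest probe set standing for each, 8 of the 10 lay below 0 at 4 h with a median difference of -0.07. Over all genes 54.6% lay below 0, with a median of -0.01. At 2 h, 6 of the 10 lay below 0 (median -0.03, or 0.04 with the replicate number as a block, where the median of all genes was -0.01), and at 1 h 4 of the 10 did (median 0.02, where that of all genes was -0.01). Among the further ER lists described below, 12 of 15 translocon and signal peptidase genes (80%) lay below 0 at 4 h. So did 7 of 10 UPR and HSP70 genes, 13 of 19 COPII and COPI genes and 6 of 9 PDI-like genes. Lower shares were found for N-linked sugar genes (16 of 26), ER calcium and prolyl isomerases (6 of 12) and ER-associated degradation (7 of 16). No single-gene test passed among the 10 folding genes, and these counts are descriptions of small lists.

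The folding genes differed between replicate numbers about as much as between times. Replicates 3 and 4 averaged above replicates 1 and 2 for 14 of the 15 probe sets at 4 h and for 12 of the 15 at 0 h. At both times 12 of the 15 did so (80%), where 28.8% of all probe sets did. The median of this offset among the 15 was 0.11 at 4 h and 0.07 at 0 h, where the medians of all probe sets were -0.02 and -0.01. The exceptions were ero-1 176237_at and dnj-27 at 0 h, and dnj-7 at both times. In 9 of the 15 the size of the offset, averaged over both times, was larger than the difference between 4 h and 0 h, as in 53.6% of all probe sets. All 15 probe sets lay above the median probe set in level, and 11 lay above the upper quartile. The shares and medians of all probe sets include dim ones, and those of equally bright probe sets are not given. What sets the replicate numbers apart was not tested.

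A mean over the 10 genes shows the same layout. With each gene centred on its own mean over the 12 arrays, the mean was -0.021, -0.012, 0.075 and 0.056 at 0 h, 0.035 and 0.0088 at 1 h, 0.011 and -0.031 at 2 h, and -0.12, -0.067, 0.031 and 0.036 at 4 h, in order of replicate number. All 4 numbers were lower at 4 h than at 0 h. The 2 arrays of replicates 1 and 2 at 4 h were the lowest of all, and the 4 h arrays of replicates 3 and 4 stayed above the 0 h arrays of replicates 1 and 2. No p is given for this mean, since its members were chosen by function with earlier results known.

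**Figure D3:**
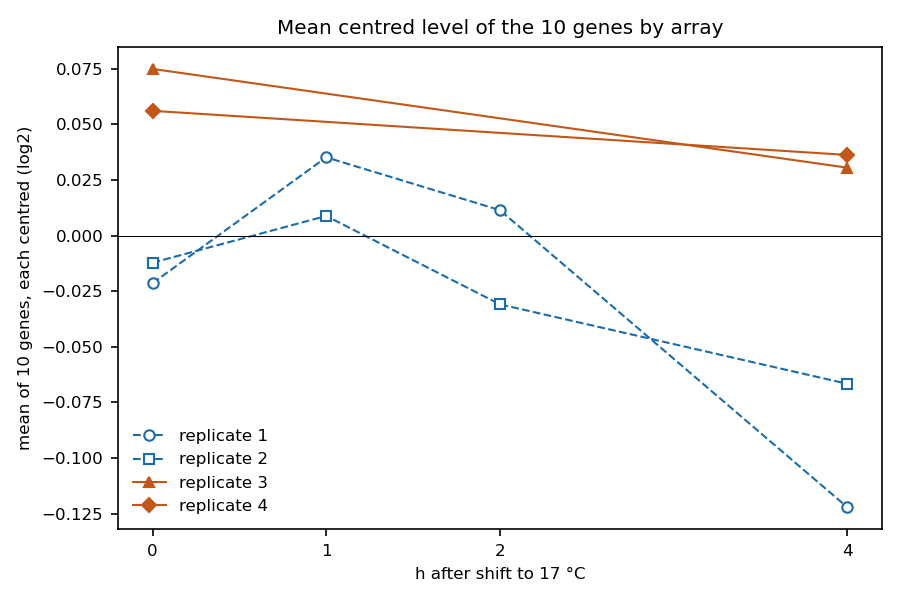
Mean over the 10 genes of log2 signal, each gene centred on its own mean, by hours after the shift, with 1 line per replicate number (1 and 2 dashed, 3 and 4 solid). Lines join arrays by number only as a guide. The 4 h points run from -0.12 to 0.036 and the 0 h points from -0.021 to 0.075, with replicates 3 and 4 above replicates 1 and 2 at both times.

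The genes' signals were also set against one another. Over the 45 pairs, Pearson's r across the 12 arrays had a median of 0.198, was above 0 in 33 and ran from -0.60 (dnj-7 with dnj-27) to 0.711 (pdi-3 with cnx-1). After the mean of each time was removed the median was 0.333, 38 of the 45 were above 0, and the highest was 0.79. These are descriptions, since the arrays share times and replicate numbers. Of 17108 other genes, those most like the mean of the 10 were mars-1, which encodes a methionyl-tRNA synthetase (r = 0.946 over 12 arrays), F46H5.3 (0.926), prx-19, a peroxisome assembly gene (0.917), Y106G6D.2 (0.912) and gta-1, a GABA transaminase gene (0.911).

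The rest of the ER's protein production line was read from 7 lists with 106 measured genes out of 126. Of these, 0 were called at 1 h (4 unadjusted), 1 at 2 h, or 0.943%, and 2 at 4 h, or 1.89%, where 0.967% and 2.3% of all probe sets were called. The medians of the 7 lists at 4 h lay between -0.04 and 0.04, where the 10 folding genes had -0.07. The called genes were fkb-5 and atf-4. Both have probe sets of the _s_at kind (193656_s_at and 192027_s_at), which can also read a related transcript. A filter that drops such probe sets leaves both genes untested.

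FKB-5 is an FK506-binding prolyl isomerase of the ER, an enzyme that turns proline bonds as chains fold, and its transcript was the one folding-enzyme gene of the ER in these lists that rose. Its probe set, 193656_s_at, read 8.20, 8.09, 8.09 and 8.03 at 0 h, 8.52 and 8.42 at 1 h, 8.51 and 8.89 at 2 h, and 8.85, 8.79, 8.79 and 8.78 at 4 h. All arrays after the move lay above all arrays before it, and the 4 h arrays were tightly grouped. It was 1.63-fold higher at 4 h (log2 change 0.70, SE 0.0831, limma adjusted p = 0.000634) and 1.51-fold higher at 2 h (0.60, SE 0.102, adjusted p = 0.0128), and the change of 0.37 at 1 h did not pass (adjusted p = 0.45). Without replicate 2 of 2 h, the change at 2 h was 0.41 and did not pass (adjusted p = 0.273). With replicates 1 and 2 alone neither passed, at 0.67 for 4 h (adjusted p = 0.144) and 0.56 for 2 h (adjusted p = 0.198). Its relatives fkb-3 and fkb-4, looked up after this value was seen, read 5.88 to 6.47 and 4.24 to 4.60 at 4 h, against 6.12 to 6.63 and 4.04 to 4.75 at 0 h, overlapping in both. The list that holds fkb-5, 12 genes of ER calcium and prolyl isomerases, had 1 riser, 0 fallers and a median of -0.003 at 4 h. Differences in it ran from -0.31 to 0.70. At an unadjusted limma p under 0.05, 3 of the 12 passed, where 2217 of 17118 genes did. As background, combined loss of FKB proteins of the secretory pathway, FKB-5 among them, is known to make worms cold-sensitive.

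ATF-4 is the transcription factor whose translation the PEK-1 branch of the UPR raises. Its transcript read 9.09, 9.10, 9.19 and 8.998 at 4 h, against 9.91, 9.77, 9.50 and 9.59 at 0 h. It was lower on every 4 h array than on any 0 h array, at 1.51-fold (log2 change -0.59, SE 0.103, limma adjusted p = 0.00801). The 1 h arrays (9.60 and 9.95) and the 2 h arrays (9.72 and 9.54) lay at the 0 h level, and 4 h differed from both together by -0.60 (adjusted p = 0.0269). That second call was lost without replicate 2 of 1 h, without either 2 h array and without any of the 4 h arrays (adjusted p = 0.0584 to 0.0921). Within replicates 1 and 2 the difference was -0.74 (adjusted p = 0.114) and within replicates 3 and 4 it was -0.45 (adjusted p = 0.16), so neither subset passed with 2 arrays a time.

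The other genes of the UPR list, its HSP70 chaperones included, did not pass against 0 h. HSP-3 and HSP-4 are the worm's ER HSP70 proteins, the BiP relatives with which the DnaJ proteins above work. Their probe sets, 189828_s_at and 192010_s_at, are of the kind that can also read a related transcript. The hsp-3 probe set read 9.96, 10.04, 9.99 and 10.07 at 4 h, against 10.22, 10.18, 10.27 and 10.15 at 0 h. These groups did not overlap, but the difference of -0.19 did not pass (SE 0.0652, limma adjusted p = 0.193). At 1 h it read 10.39 and 10.24 and at 2 h 10.21 and 10.24, so every 4 h array lay below these as well. The difference of -0.26 between 4 h and both together did not pass (adjusted p = 0.132), but it passed with trend and robust eBayes settings (adjusted p = 0.04) and when the dimmer part of the probe sets was left out (adjusted p = 0.0474). For hsp-4, the gene that the UPR raises most visibly in worms, the readings were 11.24, 11.24, 11.41 and 11.43 at 4 h, against 11.30, 11.28, 11.49 and 11.35 at 0 h, a difference of -0.02. The ranges overlapped, with replicates 1 and 2 of 4 h just under the lowest 0 h array. Probe set 190863_at of xbp-1, the factor that IRE-1 activates by splicing, differed by -0.12 (adjusted p = 0.581), with its highest 4 h array just under its lowest 0 h array, and its other probe set differed by -0.06. These probe sets measure total xbp-1 RNA, and no splicing was measured. Of the 10 genes of this list 1 fell, 0 rose and 9 did not pass at 4 h, with a median of -0.02. At an unadjusted limma p under 0.05, 3 of the 10 passed, where 2217 of 17118 genes did. The 3 were atf-4 and hsp-3, which were lower, and atf-6, which was higher by 0.16 (adjusted p = 0.381).

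**Figure D4:**
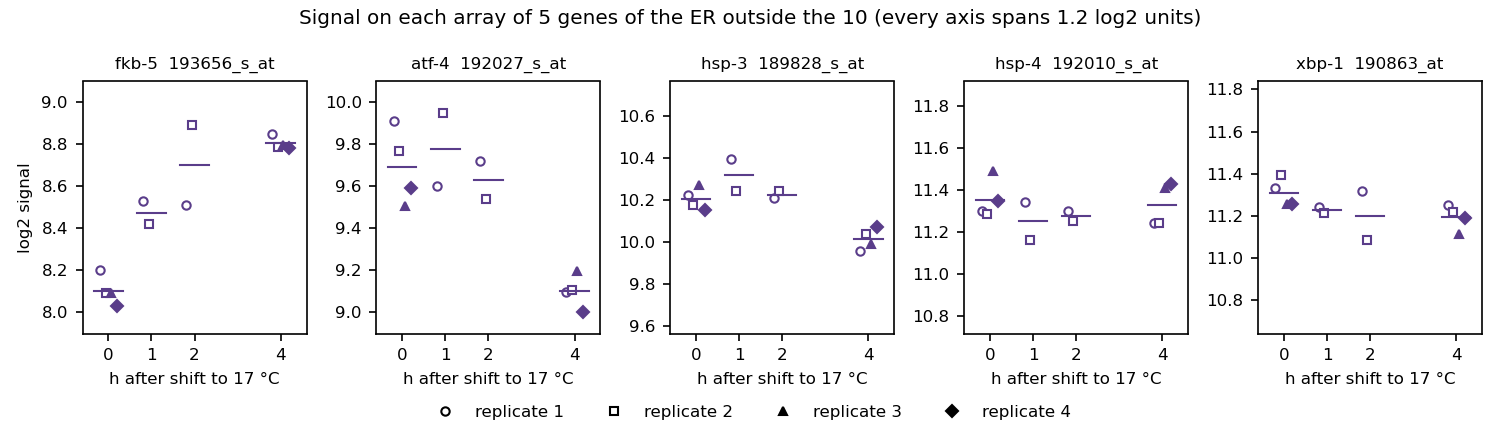
Log2 signal on the 12 arrays of 5 ER genes outside the 10, by hours after the shift, with symbols for replicate numbers (1 and 2 open, 3 and 4 filled), short lines for means per time and vertical axes that span 1.2 log2 units. fkb-5 is above its 0 h range at every later time. At 4 h atf-4 and hsp-3 lie below theirs, xbp-1 lies just below its own, and hsp-4 overlaps.

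A list of other PDI-like and collagen hydroxylation genes, 9 of them measured, gave 0 calls and a median of -0.01 at 4 h (1 unadjusted). Where in the cell their proteins act was not measured. One of them, txdc-12.1, a thioredoxin-domain gene, read 6.09, 6.31, 6.40 and 6.53 at 4 h, against 6.59, 6.81, 6.68 and 6.96 at 0 h, without overlap. Its difference of -0.43 (SE 0.115, limma adjusted p = 0.0828) did not pass, but with the replicate number as a block it did, at the same size (adjusted p = 0.0239). The second by p, txdc-9, differed by -0.10 (adjusted p = 0.611). Beside pdi-2, the prolyl hydroxylase alpha subunits dpy-18 and phy-2, which pair with it in the collagen enzyme, differed by 0.01 (adjusted p = 0.982) and 0.09 (adjusted p = 0.797).

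The building and trimming of N-linked sugars prepares the ligands of calnexin and calreticulin. Of 26 genes listed for this step, 0 passed at 4 h (median -0.01, 3 unadjusted). The smallest p-values belonged to aagr-1 and aagr-4, at -0.27 (limma adjusted p = 0.276) and -0.21 (adjusted p = 0.308). Both are named after acid glucosidase, and whether they act on N-linked sugars was not tested. For aagr-1 replicate 4 was the high array, with 8.68, 8.78, 8.82 and 9.19 at 4 h, against 9.04, 9.04, 9.21 and 9.24 at 0 h. Without it the change was -0.37 and passed (adjusted p = 0.0389). At 2 h, 20 of these 26 genes lay below 0 (76.9%, where 53.4% of all genes did), with a median of -0.11 and 0 calls, 0 of them at an unadjusted p under 0.05. By the same count at 2 h, 16 of 19 COPII and COPI genes lay below 0 (median -0.04), with 0 calls. Of the 9 PDI-like and hydroxylation genes 8 lay above 0 (median 0.05), again with 0 calls. Below 0 at 2 h lay 11 of 16 genes of ER-associated degradation and 8 of 15 translocon genes. In the UPR list 6 of 10 did, and in the ER calcium list 5 of 12. All these counts set replicates 1 and 2 of 2 h against all 4 arrays of 0 h.

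The remaining lists gave 0 calls at 4 h too. Of 16 genes of ER-associated degradation, which removes chains that fail to fold, 0 passed at 4 h (median 0.04, 0 unadjusted), and hrdl-1 and png-1 had the smallest p-values at -0.14 and -0.10. For hrdl-1 the value was -0.05 without replicate 4 of 4 h and -0.07 without replicate 1 of 0 h. Of 15 translocon and signal peptidase genes, which bring chains in and cut their signal peptides, 0 passed (median -0.04, 0 unadjusted), with spcs-3 at 0.12 and sec-61.B at -0.11 (its other probe sets at -0.14 and -0.17). Of 19 genes of COPII and COPI vesicles, which carry folded proteins onward and return ER residents, 0 passed (median -0.03, 0 unadjusted). Here npp-20, a COPII coat gene, was at -0.13 (its other probe set at -0.05) and ile-2, a cargo lectin gene, at -0.12. In limma, adjusted p was between 0.416 and 0.7 for the brightest probe sets of these 6 genes.

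**Figure D5:**
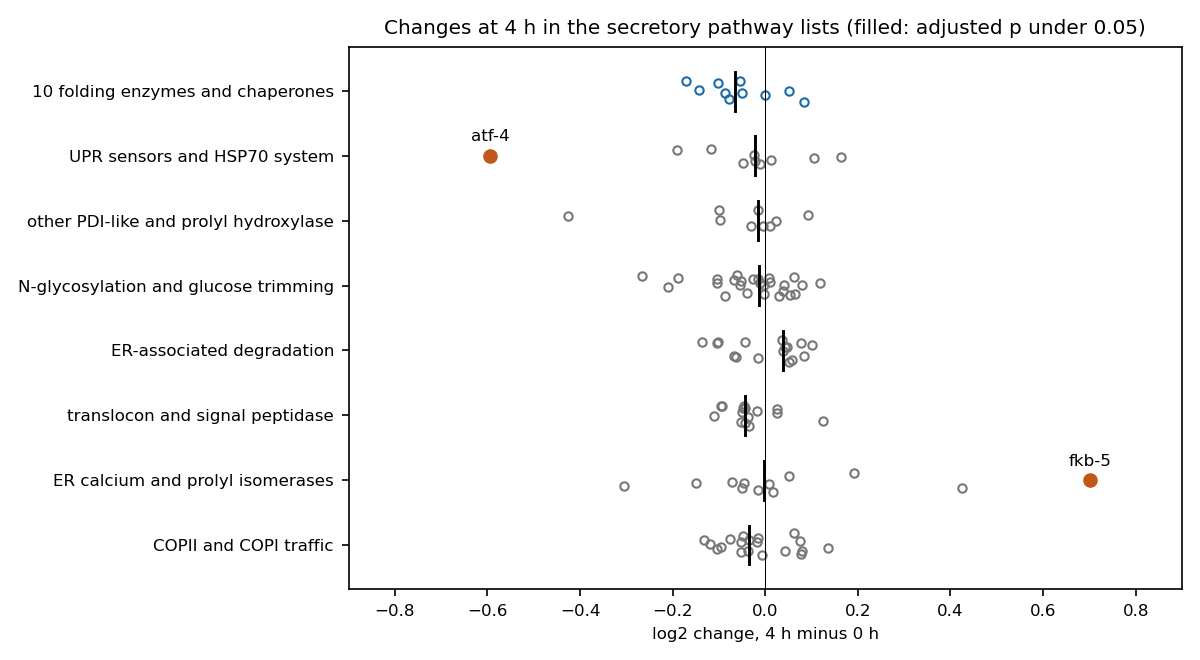
Difference in log2 signal between 4 h and 0 h for the 10 folding genes (top row) and for the genes of 7 further ER lists, with 1 point per gene and the median of each list as a bar. Filled points passed limma's adjusted p of 0.05: atf-4 at -0.59 and fkb-5 at 0.70. The 10 folding genes lie between -0.17 and 0.08.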

How the data were processed

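Each deposited value is a log2 signal for 1 probe set, computed by the authors with RMA; the submitters' processing notes name no version. RMA usually gives base 2, and values from 1.508 to 14.36 fit that. Filters and build: not given in the sources used here, so no coordinates are printed. Scanner files were not used here, which leaves signal over background unassessed. The number of arrays limits the precision.

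All 22548 probe sets on 12 arrays entered one linear model in R 4.3.3, with limma 3.58.1 for the moderated tests (1 mean per time, eBayes defaults, 8 degrees of freedom from the residuals and 5.03 from the prior). The test is two-sided, with Benjamini-Hochberg adjustment over all probe sets and a threshold of 0.05. The fit was tested on simulated data. Names came from the platform annotation, with 1 symbol for 20766 probe sets, several for 887 and none for 895. The gene identifiers of all 10 members matched the RefSeq table. A gene is represented by its brightest probe set.

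The members, lists and named genes were chosen with earlier results of these data known. Every member is named, with up to 4 called genes of each ER list (otherwise the 2 with the smallest p at 4 h), hsp-3, hsp-4, xbp-1 and the 5 genes most like the members' mean. The genes fkb-3, fkb-4, dpy-18 and phy-2 were named after their values were seen. Deviations from the group mean were shared by the 0 h and 4 h arrays of one replicate number (r = 0.169 to 0.314, against -0.29 to 0.147 for different numbers), so the numbers were taken to pair these arrays. This pairing comes from the values, not from the labels. The block also joins the 1 h and 2 h arrays to the others by number, an assumption that these r values do not cover. Alternatives were a block for the replicate number, subsets of arrays, each array left out, renormalisation, other eBayes settings and filters on probe sets.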

Additional observations from a re-analysis of the deposited data

Results flagged for a closer look

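Of 60 groups of 4 arrays examined (the members and the named ER genes at 0 h and at 4 h), 2 held an array far from the rest by Dixon's criterion, where chance gives about 1 in 20. At 4 h, replicate 4 of hrdl-1, an ER-associated degradation gene, read 7.97, while the other 3 arrays lay between 8.30 and 8.37. Without that array its difference from 0 h was -0.05, in place of -0.14. The other probe set of hrdl-1 differed by -0.15 at 4 h over all arrays. At 4 h, replicate 2 of aagr-4, a glucosidase family gene, read 5.76, while the others lay between 5.92 and 5.94. No array of the 10 folding genes stood apart in this way. The cause was not tested.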

How the results depend on the processing

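The members' calls were recomputed under 23 alternatives, 12 of which leave out 1 array. Of 1480 alternative values for the 15 probe sets, 1 passed, so that the count of calls for 4 h against 1 h and 2 h together was 1 under a replicate block over 12 arrays, in place of 0 (pdi-6 173898_at at -0.36, limma adjusted p = 0.0499, where it was -0.21 and 0.443). The block uses the pairing above, extended by assumption to the 1 h and 2 h arrays, and changed no other call of a member. It made txdc-12.1 pass at 4 h, as given above, and against 1 h and 2 h together (-0.64, adjusted p = 0.0149, without the block -0.54 and 0.0708), likewise aagr-1 (-0.43, adjusted p = 0.0437, without the block -0.31 and 0.225), while atf-4 no longer passed there (-0.53, adjusted p = 0.07). In that comparison txdc-12.1 also passed with trend and robust eBayes settings (adjusted p = 0.0358) and without the dimmer part of the probe sets (adjusted p = 0.0402), as hsp-3 did. Without any 1 array the counts for the 15 stayed at 0 in every comparison. Signs of the members turned in 12 of 332 values at 4 h, 14 of 287 at 2 h, 14 of 287 at 1 h, 10 of 287 for 1 h and 2 h pooled and 21 of 287 for 4 h against these, in each case where the reported difference was under 0.1. The median of the 10 genes at 2 h was 0.04 under the block, in place of -0.03, and that of 4 h against 1 h and 2 h was -0.06 under the block and -0.07 in replicates 1 and 2, in place of -0.01. With fewer arrays, replicates 1 and 2 alone called 34 of 22548 probe sets at 4 h and replicates 3 and 4 alone 91, in place of 518, and without replicate 2 of 2 h the comparison of 2 h with 0 h called 35 in place of 218, so a missing call in these subsets says little. No alternative was left out. What limits the members is 2 arrays each at 1 h and 2 h, and probe sets that may also read related transcripts.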
